A study of Equus caballus with 25 samples.

Results

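GM2A, GPX3 and CLU encode secreted proteins, and their messenger RNAs were followed through the oestrous cycle in the endometrium, the lining of the uterus, of the mare. Every probe on the array whose RefSeq transcript belongs to 1 of these horse genes was taken, which gave 8 of 43603 probes, 1 for GM2A, 6 for GPX3 and 1 for CLU. The 32565 probes named by Ensembl transcripts were not matched to genes, so further probes of these genes may be among them. The biopsies came from 5 normally cycling Bavarian Warmblood mares at day 0 (shortly after ovulation), day 3 (early luteal phase), day 8 (mid luteal phase), day 12 (late luteal phase) and day 16 (when the next ovulatory phase begins). Each mare was sampled at each of the 5 days, spread over several cycles, so that 25 biopsies in 5 groups of 5 were compared, and the labels name no treatment and no age. A biopsy mixes glandular and surface epithelium, stroma, vessels and immune cells. The values therefore do not show which cells held a messenger RNA, and fewer cells of a type and less RNA per cell cannot be told apart.

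After ovulation the corpus luteum secretes progesterone, and the uterine glands release the mixture of proteins, lipids and ions called histotroph, which nourishes an early conceptus. GM2A encodes the GM2 activator protein, which lifts the ganglioside GM2 out of membranes so that it can be degraded in lysosomes. GPX3 encodes the extracellular glutathione peroxidase, a selenoprotein that reduces peroxides. CLU encodes clusterin, a secreted chaperone that keeps misfolded proteins in solution, carries lipids and restrains the terminal complement complex.

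Messenger RNA was measured on single-colour Agilent arrays. A level is given as log2 of the processed signal minus the array's 75th percentile, so that 0 is the signal that 75% of the spots do not exceed, and levels of different probes were not compared. The 75th percentile ranged from 698 to 3701 over the arrays, with the lowest day median, 895, at day 0, against 1559 to 2001 at the other days, and 70.3% to 88.1% of the spots were well above background. No array stood far from the others of its day, since the median correlation with them over all tested probes was 0.954 to 0.983. All 8 probes were well above background on all 25 arrays, and none was saturated. As a check of the hormone phase, ESR1, the oestrogen receptor alpha, which progesterone is known to lower in the endometrium, fell by 1.73 ± 0.25 (log2, SE) at day 12 against day 0 (limma, adjusted p = 4.53e-05).

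The 3 messenger RNAs followed different courses. GM2A was lowest at day 3 and highest at day 16. GPX3 was lowest at day 0 and highest at day 12. CLU was highest at day 0 and lowest at day 8. In limma's moderated F test over the 5 days, which called 35.8% of all tested probes, F was 25.5 for GM2A (adjusted p = 3.07e-06), 12.4 for the brightest GPX3 probe (adjusted p = 0.00025) and 6.39 for CLU (adjusted p = 0.00677). The call of CLU was lost with mare and slide in the model (F of 3.94, adjusted p = 0.0855), without mare 2 (adjusted p = 0.0691) and without mare 3 (adjusted p = 0.0577).

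**Figure D1:**
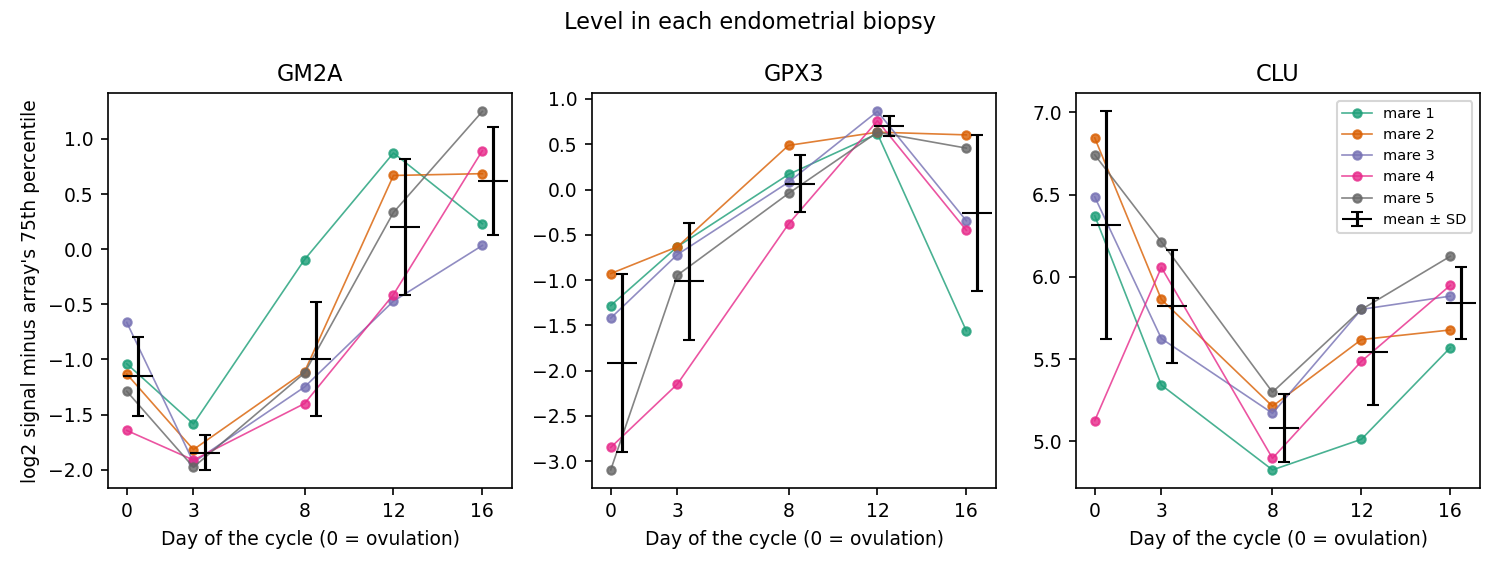
Log2 level (signal relative to the array's 75th percentile) of GM2A, of the brightest GPX3 probe and of CLU against the day of the cycle; coloured points joined by lines are the 5 mares, black bars the mean ± SD. GM2A lies below −1.5 in all mares at day 3 and above 0 in all mares at day 16, GPX3 lies between 0.62 and 0.86 at day 12, and CLU lies between 4.83 and 5.30 at day 8.

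GM2A had log2 levels of −1.04, −1.13, −0.66, −1.64 and −1.29 in mares 1 to 5 at day 0 (mean −1.15 ± 0.36, SD, n = 5). At day 3 the levels of mares 1 to 5 were −1.58, −1.82, −1.93, −1.91 and −1.98 (mean −1.85 ± 0.16). All 5 mares were lower at day 3 than at day 0, but the ranges overlapped. Here and below, overlap and counts of mares were looked at for these genes only. How often other probes gave the same is not known. The difference, day 3 minus day 0, was −0.69 ± 0.28 (SE; 95% interval −1.28 to −0.10) and did not pass the test (adjusted p = 0.110), in a comparison that called 12.7% of all tested probes. The median of all tested probes was itself −0.11 here (0.00 after quantile normalization), and relative to it GM2A differed by −0.58.

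At day 8 the GM2A levels of mares 1 to 5 were −0.09, −1.11, −1.25, −1.40 and −1.12 (mean −0.996 ± 0.52). At day 12 they were 0.87, 0.67, −0.47, −0.41 and 0.33 (mean 0.20 ± 0.62). At day 16 they were 0.23, 0.68, 0.03, 0.89 and 1.25 (mean 0.62 ± 0.49). Mare 1 stood above the other mares at day 8, mares 3 and 4 lay below the others at day 12, and every mare was above 0 at day 16.

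GM2A rose at each of the 2 steps through the luteal phase. At day 8 against day 3 it was 1.80-fold higher (log2 difference 0.85 ± 0.28, adjusted p = 0.0487), higher in 5 of 5 mares and without overlap, where 13.8% of all tested probes were called. At day 12 against day 8 it was 2.29-fold higher (1.19 ± 0.28, adjusted p = 0.0414) and again higher in 5 of 5 mares, although mares 3 and 4 at day 12 overlapped with mare 1 at day 8; only 1.1% of all tested probes were called there. At day 16 against day 12 it differed by 0.42 ± 0.28 (95% interval −0.17 to 1.01, adjusted p = 0.401), higher in 4 of 5 mares, in a comparison that called 8.07% of the probes. Both calls sat close to the threshold. That of day 8 against day 3 was lost with quantile normalization (adjusted p = 0.0528), no filter on dim probes (0.0635) and scan day as a block (0.0644), and that of day 12 against day 8 with no filter (0.0568), the array's 75th percentile as a covariate (0.0660), mare and slide (0.133), scan day (0.0656) or only those days in the model (0.0530). That of day 8 against day 3 was lost without any of 15 of the 25 arrays (3 of day 0, 5 of day 3, 4 of day 8, 2 of day 12 and 1 of day 16), with the largest adjusted p, 0.164, without the day 8 array of mare 1. That of day 12 against day 8 was lost without any of 11 arrays (2 of day 3, 4 of day 8, 4 of day 12 and 1 of day 16), and both were lost without any 1 of the 5 mares.

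Between days further apart GM2A was called with smaller adjusted p. At day 16 GM2A was 3.42-fold higher than at day 0 (log2 difference 1.77, 95% interval 1.18 to 2.36, adjusted p = 0.00137), where 4.71% of all tested probes were called. Against day 3 it was 5.52-fold higher at day 16 (2.46, adjusted p = 8.87e-06; 13.8% of probes called) and 4.12-fold higher at day 12 (2.04, adjusted p = 2.64e-05; 17.9% of probes called). It was also 3.06-fold higher at day 16 than at day 8 (1.61, adjusted p = 0.000388; 15.0% of probes called) and 2.55-fold higher at day 12 than at day 0 (1.35, adjusted p = 0.00166; 17.9% of probes called). The groups of these 5 comparisons did not overlap, and GM2A was higher in 5 of 5 mares in each. Day 8 and day 0 differed by 0.16 (95% interval −0.43 to 0.75, adjusted p = 0.765), in a comparison that called 21.9% of the probes.

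In all, GM2A was called in 7 of the 10 pairs of days, each time higher at the later day. In the order of the day means, 16, 12, 8, 0 and 3, the only neighbours that differed by the test were days 12 and 8. Within slides that held both days, the direction of all 7 called differences held in every slide. They were 0.53 to 1.49 in 4 slides at day 8 against day 3, for example. At day 16 against day 0 they were 1.72 to 2.54 in 3 slides. Most slides held arrays of a single mare, so most of these differences lay within a mare and are not a separate check. With the array's 75th percentile as a covariate, the difference between day 16 and day 0 was 1.49 (adjusted p = 0.146).

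Levels of some marker genes of other cell types were also higher late in the cycle. Of 5 markers of smooth muscle 1 was tested, TAGLN, an actin-binding protein, whose signal in units of the array's 75th percentile was 0.456 to 1.19 at day 16, against 0.192 to 0.319 at day 12 and 0.132 to 0.478 at days 0 to 8. TAGLN rose at day 16 against each of the other days, by 1.15 ± 0.32 against day 0 (adjusted p = 0.0383). Of 10 leukocyte markers 5 were tested, and their summed signal was 7.77 to 31.9 at day 12 and 8.54 to 22.5 at day 16, against 3.92 to 12.0 at day 8, 3.57 to 6.83 at day 3 and 3.64 to 12.5 at day 0. None of the 5 was called at day 12 or day 16 against day 0 (median log2 differences 0.02 and −0.02), where GM2A was. In each of day 12 against day 3, day 12 against day 8 and day 16 against day 3, 1 of the 5 was called higher. At day 16 against day 8 it was 2 of the 5. The only tested epithelial marker of 11, ESRP1, a splicing regulator of epithelial cells, passed in no comparison, and its signal was 6.32 to 10.2 at day 16, against 5.85 to 12.6 at day 0. Signals on this scale cannot be 0, so they do not show that every marker was well measured. The only tested marker of 6 for ciliated cells, DYDC1, was dim, at 0.0077 to 0.0130 at day 16 and 0.0075 to 0.0261 at day 0. The part of these cells in the course of GM2A was not tested.

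Of 20 genes of lysosomal sphingolipid breakdown, the pathway that GM2A serves, 1 had a named probe. This was SMPD1, the acid sphingomyelinase, at log2 levels of 3.16 ± 0.18, 2.98 ± 0.21, 3.32 ± 0.12, 3.84 ± 0.23 and 3.37 ± 0.53 at days 0, 3, 8, 12 and 16 (SD, n = 5 each). SMPD1 rose at day 12 against day 0 by 0.68 ± 0.20 (adjusted p = 0.0168) and against day 3 by 0.86 ± 0.20 (adjusted p = 0.00328). Its highest mean was that of day 12, the highest of GM2A that of day 16.

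The 6 GPX3 probes carry the same transcript accession and are measurements of 1 gene in the same 25 biopsies, not replicates. The brightest represents the gene, and the 5 others were on average dimmer by 2.44 on the log2 scale. It had log2 levels of −1.28, −0.93, −1.42, −2.85 and −3.10 in mares 1 to 5 at day 0 (mean −1.91 ± 0.99). At day 3 they were −0.63, −0.63, −0.72, −2.15 and −0.95 (mean −1.01 ± 0.65). Mares 4 and 5 were far below the others at day 0, and mare 4 alone at day 3. At day 3 GPX3 was higher than at day 0 in 5 of 5 mares, with overlap, but the difference of 0.90 ± 0.41 (95% interval 0.06 to 1.74) did not pass (adjusted p = 0.147). It was 1.01 relative to the median of all probes.

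At day 8 the GPX3 levels of mares 1 to 5 were 0.17, 0.49, 0.08, −0.38 and −0.04 (mean 0.06 ± 0.32). At day 12 they were 0.62, 0.63, 0.86, 0.76 and 0.63 (mean 0.70 ± 0.11). At day 16 they were −1.56, 0.60, −0.34, −0.45 and 0.46 (mean −0.26 ± 0.86). The mares lay within 0.25 of each other at day 12 and spread widely at days 0 and 16, with mare 1 the lowest at day 16.

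GPX3 rose through the luteal phase when set against the day of ovulation. It was 3.94-fold higher at day 8 than at day 0 (log2 difference 1.98, 95% interval 1.14 to 2.82, adjusted p = 0.00114) and 6.12-fold higher at day 12 than at day 0 (2.61, 1.78 to 3.45, adjusted p = 8.06e-05). It was 3.28-fold higher at day 12 than at day 3 (1.71, 0.88 to 2.55, adjusted p = 0.00425). In these 3 comparisons 5 of 5 mares were higher and the groups did not overlap, and the 5 dimmer probes passed as well. The shares of all tested probes called there were 21.9%, 17.9% and 17.9%. At day 16 it was still 3.15-fold higher than at day 0 (1.66 ± 0.41, adjusted p = 0.0192), where 4.71% of all tested probes were called. This held in 4 of 5 mares and with overlap, mare 1 being lower at day 16. With terms for mare and slide, log2 differences against day 0 were 3.04 at day 8, 3.69 at day 12 and 2.52 at day 16. Each gave more than 1.5 times the fold without those terms. Only mares 4 and 5 had their day 0 array on a slide with other arrays of their own. The level of day 0 in that model therefore rests only on the day 0 arrays of these mares, which had the lowest GPX3 levels at day 0. These larger differences are thus not an adjusted estimate over 5 mares. The call at day 16 against day 0 was lost without the day 0 array of mare 5 (1.36, adjusted p = 0.0574) or the day 16 array of mare 2 (1.44, 0.0679) or mare 5 (1.48, 0.0510), without any 1 of 4 of the 5 mares, and with the array's 75th percentile as a covariate (1.37, adjusted p = 0.425).

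Between successive days the 6 probes did not all give the same call. At day 8 against day 3 the brightest probe differed by 1.08 (95% interval 0.24 to 1.92), higher in 5 of 5 mares and without overlap, and did not pass (adjusted p = 0.0823), though it did with the mare as a block (adjusted p = 0.0497). The 5 dimmer probes rose by 1.46 to 1.56 and all passed (adjusted p = 0.0102 to 0.0263), where 13.8% of all tested probes were called. At day 12 against day 8 none of the 6 passed, at 0.64 for the brightest (adjusted p = 0.465), higher in 5 of 5 mares and without overlap, and 0.31 to 0.36 for the others. At day 16 against day 12 the brightest differed by −0.96 (95% interval −1.80 to −0.12, adjusted p = 0.169), lower in 5 of 5 mares and without overlap. The others differed by −1.20 to −1.10 there (adjusted p = 0.0642 to 0.135), so that none passed, although 2 of these 5 did with the mare as a block. The brightest did not pass either at day 16 against day 3 (0.76, adjusted p = 0.254) or at day 16 against day 8 (−0.32, adjusted p = 0.643).

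**Figure D2:**
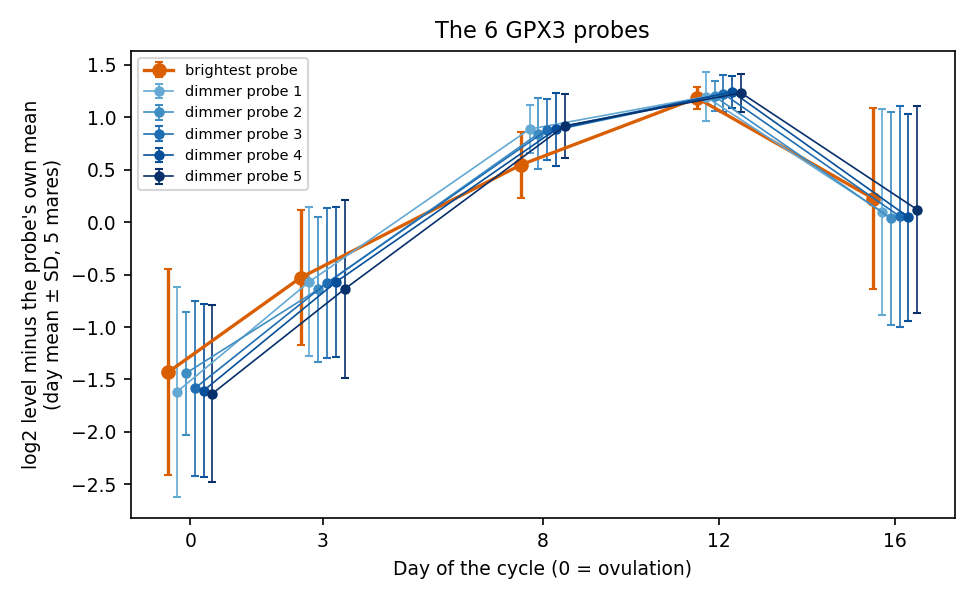
Day means ± SD over 5 mares of the 6 GPX3 probes, each as log2 level minus the probe's own mean, against the day of the cycle; orange is the brightest probe, blue the 5 dimmer ones, set side by side around each day. All 6 probes have their lowest mean at day 0 and their highest at day 12, and the dimmer probes stand higher than the brightest at day 8.

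Markers of other cell types also differed in some of the comparisons in which GPX3 rose. The stromal markers LUM and DCN, 2 of 8 tested, fell at day 8 against day 0 (by 1.30 and 1.43) and at day 12 against day 0 (by 2.13 and 1.03), and their summed signal was 11.8 to 16.1 at day 8 and 12.6 to 20.04 at day 12, against 29.8 to 44.7 at day 0. PECAM1, an adhesion protein of endothelium and the only tested marker of 5 for it, rose by 0.54 ± 0.19 at day 12 against day 3 (adjusted p = 0.0461), where GPX3 and GM2A were called, with a signal of 1.42 to 2.14 at day 12, against 1.04 to 1.91 at day 3. LUM and DCN were not called at day 12 against day 3 or at day 16 against day 0, where GPX3 was. Both fell at day 3 against day 0, where GPX3 was not called. PECAM1 was called in no other pair of days. The part of these cells in the course of GPX3 was not tested.

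Over the 25 arrays the 5 dimmer probes correlated with each other at r of 0.974 to 0.998 and with the brightest at 0.961 to 0.972, as a description of probes read in the same biopsies. The brightest probe was called in 4 of the 10 pairs of days, each time higher at the later day. In the order of its day means, 12, 8, 16, 3 and 0, no neighbours differed by the test. Within slides that held both days, the 4 called differences kept their direction. They were 1.81 to 3.61 in 2 slides at day 12 against day 0 and 1.25 to 2.91 in 3 slides at day 12 against day 3. Since most slides held arrays of a single mare, most of these differences lay within a mare and are not a separate check.

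Of 33 genes of glutathione metabolism and peroxide defence, 5 had a named and tested probe, and 2 of the 5, SOD1 and TXN, passed the F test, a share near the 35.8% of all tested probes. SOD1, the cytosolic superoxide dismutase that makes hydrogen peroxide from superoxide, had log2 levels of 3.63 ± 0.24, 4.18 ± 0.32, 5.05 ± 0.19, 4.45 ± 0.26 and 4.54 ± 0.21 at days 0, 3, 8, 12 and 16 (SD, n = 5 each). It rose at day 3 against day 0 (0.56 ± 0.17, adjusted p = 0.0368), at day 8 against day 3 (0.87 ± 0.17, adjusted p = 0.00139) and at day 16 against day 0 (0.92 ± 0.17, adjusted p = 0.00461). Its highest mean was that of day 8, the highest of GPX3 that of day 12.

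TXN, the disulphide-reducing thioredoxin, had its lowest means at days 8 and 12, with log2 levels of 2.77 ± 0.44, 2.97 ± 0.13, 2.18 ± 0.24, 2.13 ± 0.06 and 2.75 ± 0.24 at days 0, 3, 8, 12 and 16. It fell by 0.84 ± 0.18 at day 12 against day 3 (adjusted p = 0.00167) and rose by 0.62 ± 0.18 at day 16 against day 12 (adjusted p = 0.0323). SELENOP, which carries selenium in plasma to tissues, rose in 1 comparison, at day 12 against day 3 (0.59, adjusted p = 0.0429). SOD2 and TXNRD1 passed in none. Per comparison the list thus had at most 1 member called higher and 1 called lower, where 1.1% to 21.9% of all tested probes were called.

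CLU had log2 levels of 6.37, 6.84, 6.49, 5.13 and 6.74 in mares 1 to 5 at day 0 (mean 6.31 ± 0.69). At day 3 they were 5.34, 5.86, 5.62, 6.06 and 6.21 (mean 5.82 ± 0.35). At day 8 they were 4.83, 5.21, 5.17, 4.90 and 5.30 (mean 5.08 ± 0.21). Mare 4 at day 0 stood far below the other 4 mares of that day, near the levels of day 8.

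At day 12 the CLU levels of mares 1 to 5 were 5.01, 5.62, 5.80, 5.49 and 5.80 (mean 5.54 ± 0.33). At day 16 they were 5.57, 5.68, 5.88, 5.95 and 6.12 (mean 5.84 ± 0.22). Every mare was lowest at day 8 and higher again at days 12 and 16. The day means of CLU spanned 1.23 on the log2 scale, those of GM2A 2.46 and those of GPX3 2.61.

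CLU fell in the mid luteal phase. At day 8 it was 2.35-fold lower than at day 0 (log2 difference −1.23, 95% interval −1.76 to −0.71, adjusted p = 0.00112), lower in 5 of 5 mares, with an overlap that came from mare 4 at day 0. At day 12 it was 1.70-fold lower than at day 0 (−0.77, adjusted p = 0.0359), lower in 4 of 5 mares. At day 16 it was 1.69-fold higher than at day 8 (0.76, 95% interval 0.24 to 1.28, adjusted p = 0.0443), in 5 of 5 mares and without overlap. The shares of all tested probes called in these comparisons were 21.9%, 17.9% and 15.0%.

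Between successive days no difference of CLU passed in the model without a term for the mare. Day 3 minus day 0 was −0.49 (95% interval −1.02 to 0.03, adjusted p = 0.204), or −0.39 relative to the median of all probes. Day 8 minus day 3 was −0.74 (−1.26 to −0.22, adjusted p = 0.0537), lower in 5 of 5 mares and without overlap, and passed with the mare as a block (adjusted p = 0.0260). Day 12 minus day 8 was 0.46 (−0.06 to 0.99, adjusted p = 0.386) and day 16 minus day 12 was 0.30 (−0.23 to 0.82, adjusted p = 0.517), each higher in 5 of 5 mares. Day 16 minus day 0 was −0.47 (adjusted p = 0.313), day 12 minus day 3 −0.28 (adjusted p = 0.470) and day 16 minus day 3 0.02 (95% interval −0.50 to 0.54, adjusted p = 0.984).

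The day 0 array of mare 4 decided several of these calls. Without it, CLU was lower by the test at day 3 than at day 0 (−0.79, adjusted p = 0.0104) and at day 16 than at day 0 (−0.77, adjusted p = 0.0249). Day 8 against day 3 passed without it too (adjusted p = 0.00904). That difference stayed at −0.74, and only its SE changed, from 0.253 to 0.186, since the days share 1 spread. The day 8 against day 3 difference also passed without the day 0 array of mare 2, the day 3 array of mare 1 or the day 12 array of mare 1, at adjusted p of 0.0467, 0.0322 and 0.0483. Of these arrays only that of day 3 enters the difference itself. The call at day 12 against day 0 was lost without any of 7 arrays (4 of day 0 and 3 of day 12), without any 1 of 4 of the 5 mares and with quantile normalization (−0.21, adjusted p = 0.535) or with mare and slide as terms (−0.20, adjusted p = 0.748), and 1 of the 2 slides that held both days went the other way (−0.86 and 0.36). The call at day 16 against day 8 was lost without any of 14 arrays (1 of day 0, 2 of day 3, 5 of day 8, 2 of day 12 and 4 of day 16), with adjusted p of up to 0.102, without any 1 of the 5 mares and with mare and slide as terms (adjusted p = 0.0514); the 4 slides that held both days gave 0.71 to 0.83. The difference at day 8 against day 0 was −1.47 and −1.44 in the 2 slides that held both days. With mare and slide in the model it was −0.69 and no longer passed (adjusted p = 0.191). Most slides held arrays of a single mare, so most differences within a slide lay within a mare. The level of day 0 in the model with mare and slide rests only on mares 4 and 5, whose day 0 arrays shared a slide with their other arrays. That of mare 4 is the low array above. The losses of calls against day 0 in that model are thus not adjusted results over 5 mares.

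**Figure D3:**
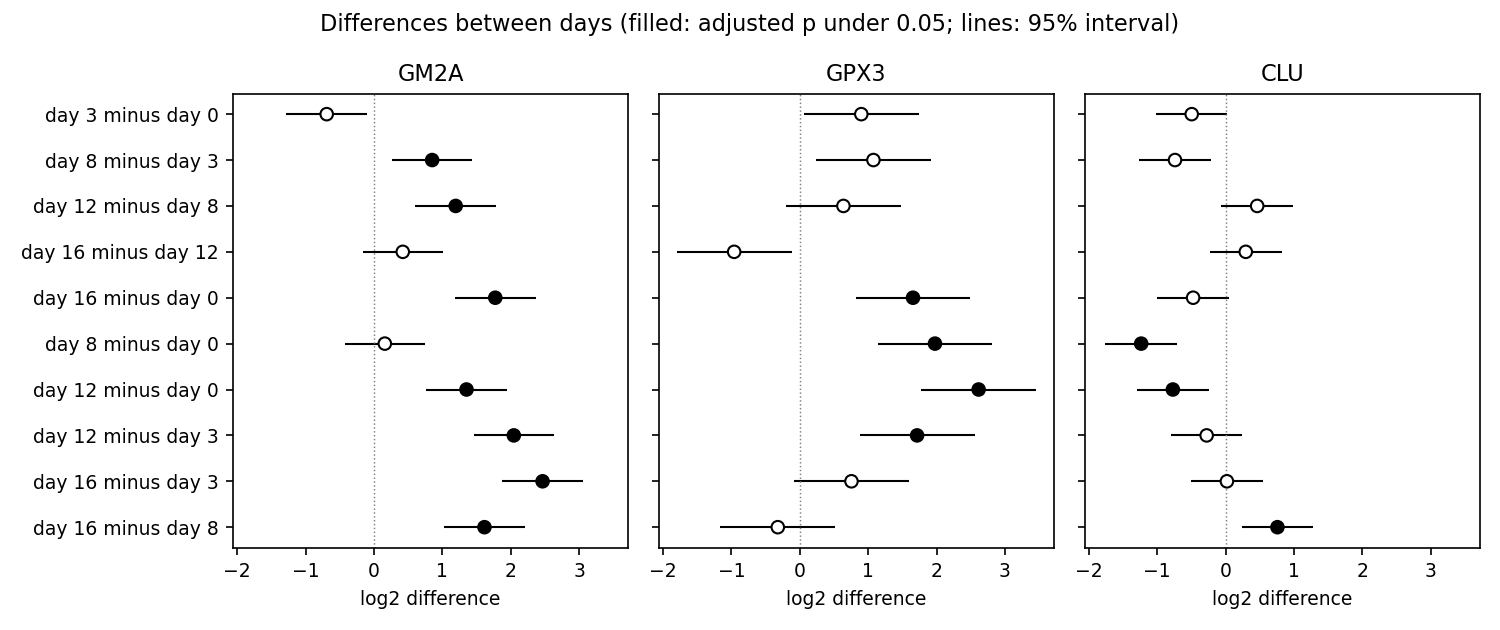
Log2 difference, later day minus earlier day, of GM2A, the brightest GPX3 probe and CLU in the 10 pairs of days, with 95% intervals as lines; filled points passed limma's test (adjusted p under 0.05 over all tested probes). GM2A has 7 filled points, all above 0, GPX3 has 4, all above 0, and CLU has 1 above 0 and 2 below 0.

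Markers of stromal fibroblasts moved with CLU in some comparisons and not in others. Of 8 such markers 2 were tested, LUM and DCN, which encode proteoglycans of the collagen matrix, and neither was at background. Their summed signal, in units of the array's 75th percentile, was 29.8 to 44.7 at day 0, 8.63 to 25.1 at day 3, 11.8 to 16.1 at day 8, 12.6 to 20.04 at day 12 and 18.2 to 36.9 at day 16. LUM fell by 1.30 ± 0.35 (adjusted p = 0.00952) and DCN by 1.43 ± 0.26 (adjusted p = 0.000401) at day 8 against day 0, and DCN rose by 1.04 ± 0.26 at day 16 against day 8 (adjusted p = 0.0084), where LUM differed by 0.82 ± 0.35 (adjusted p = 0.122). Both fell at day 3 against day 0 (LUM by 1.32 and DCN by 1.09, adjusted p = 0.0162 and 0.00884), where CLU was not called. At day 12 against day 8, where CLU differed by 0.46, LUM differed by −0.82 and DCN by 0.39 (adjusted p = 0.250 and 0.486), and the lowest mean of LUM was at day 12. GNLY, the granulysin of cytotoxic lymphocytes, fell by 1.72 ± 0.27 at day 8 against day 0 (adjusted p = 6.66e-05). It rose by 1.52 ± 0.27 at day 16 against day 8 (adjusted p = 0.000389). No other of the 5 tested leukocyte markers was called at day 8 against day 0, and their summed signal overlapped between these days. At day 16 against day 8 another of them, CD14, was called higher too. GNLY was also called lower at day 3 against day 0 and higher at day 12 against day 8, where CLU was not called. At day 12 against day 0 CLU was called and GNLY was not. The part of these cells in the course of CLU was not tested.

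Of 29 genes of extracellular chaperones, complement and apolipoproteins, 1 had a named probe, ALB, the serum albumin. Its log2 levels were −2.12 ± 0.28, −3.01 ± 0.28, −2.33 ± 0.25, −2.004 ± 0.37 and −2.52 ± 0.23 at days 0, 3, 8, 12 and 16 (SD, n = 5 each). ALB fell by 0.90 ± 0.19 at day 3 against day 0 (adjusted p = 0.00449) and rose by 0.69 ± 0.19 at day 8 against day 3 (adjusted p = 0.0181), with its lowest mean at day 3, where that of CLU was at day 8.

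The courses of the 3 genes were then compared with each other. On each array the level of 1 gene, centred on its mean over the 25 arrays, was subtracted from that of another, and the differences were compared between days with an exact two-sided permutation test of 5 against 5 arrays, whose smallest possible p is 0.00794. Of 30 such tests, adjusted together by Benjamini-Hochberg, 17 passed, 5 for GM2A and GPX3, 6 for GM2A and CLU and 6 for GPX3 and CLU. This test does not use the pairing by mare, and the 3 pairs of genes share arrays.

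GM2A and GPX3 parted at the start and at the end of the luteal phase. At day 3 against day 0 the change of GM2A was lower than that of GPX3 by 1.59 on the log2 scale (adjusted exact p = 0.0280). At day 16 against day 12 it was higher by 1.38 (adjusted exact p = 0.0280), and at day 16 against day 8 by 1.94 (adjusted exact p = 0.0183). In between, the 2 genes differed by −0.23 at day 8 against day 3 (adjusted exact p = 0.587) and by 0.56 at day 12 against day 8 (0.258), which did not pass. Over the whole cycle, day 16 against day 0, they differed by 0.12 (adjusted exact p = 0.794).

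CLU differed from both in several comparisons. At day 8 against day 3 the change of GM2A exceeded that of CLU by 1.59 and the change of GPX3 exceeded it by 1.82 (adjusted exact p = 0.0183 each). At day 12 against day 0 the excess was 2.12 for GM2A and 3.38 for GPX3, and at day 16 against day 0 it was 2.25 and 2.13 (adjusted exact p = 0.0183 each). At day 16 against day 12 GPX3 changed by 1.26 less than CLU, at −1.26 (adjusted exact p = 0.0280), while GM2A and CLU differed by 0.12 (0.755). At day 12 against day 8 neither difference from CLU passed, at 0.73 for GM2A (adjusted exact p = 0.216) and 0.18 for GPX3 (0.476). At day 3 against day 0 that of GPX3, 1.39, did not pass either (0.0567).

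**Figure D4:**
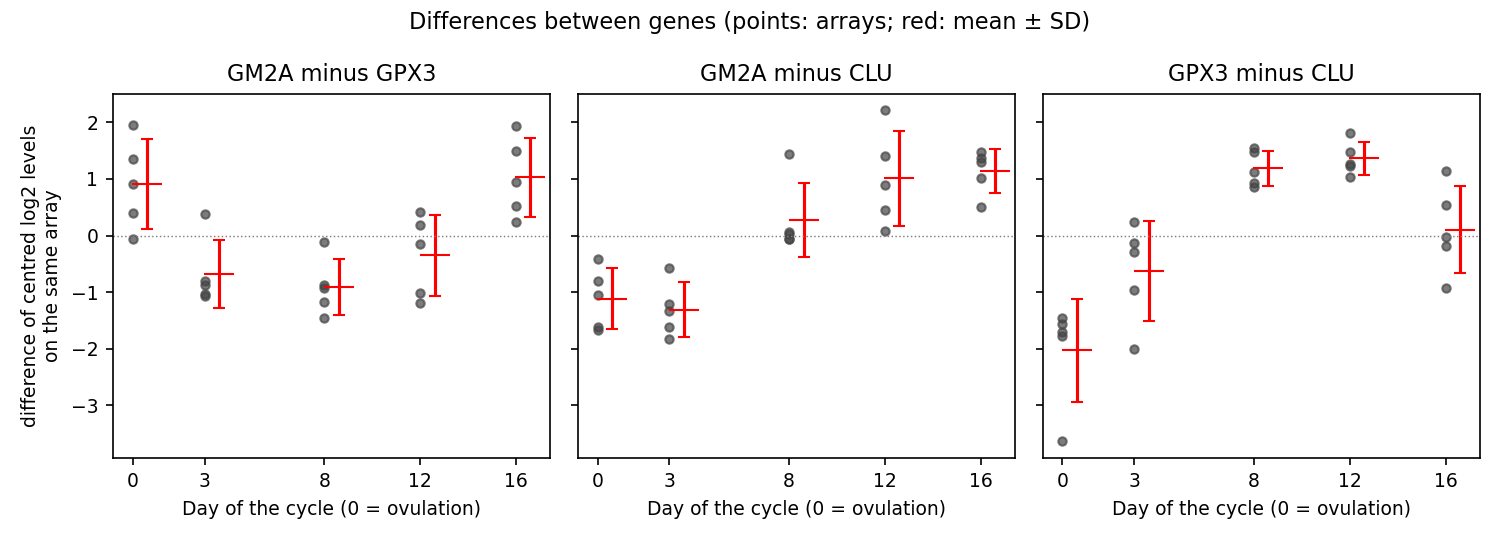
Difference of the centred log2 levels of 2 genes on the same array against the day of the cycle, for GM2A minus GPX3, GM2A minus CLU and GPX3 minus CLU; grey points are the 5 arrays of a day, red bars the mean ± SD. GM2A minus GPX3 is above 0 on all 5 arrays at day 16, and GPX3 minus CLU is below −1 on all 5 arrays at day 0 and above 0 on all 5 at days 8 and 12.

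Over the 25 arrays, which share 5 mares, GM2A and GPX3 correlated at r of 0.53 (Spearman's rho 0.58), GM2A and CLU at −0.07 (−0.04) and GPX3 and CLU at −0.40 (−0.40), given as a description. After the day means were removed, r was 0.34, 0.02 and 0.25 (rho 0.38, −0.02 and 0.17) for these 3 pairs. The negative value of GPX3 and CLU therefore lay between the days and not among the mares of a day.

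For each gene, the mares with the highest and the lowest mean deviation from the day means are named as a description. They were picked as extremes, and whether a mare kept its level over the days was not tested. Most slides held arrays of a single mare, so for most arrays the level of a mare and that of its slide cannot be told apart. Mare 5 was above the day mean of CLU on 5 of 5 days, by 0.32 on average, and mare 1 on 1 of 5, with an average of −0.30. For GPX3, mare 2 was above the day mean on 4 of 5 days (0.52 on average) and mare 4 on 1 of 5 (−0.53 on average). For GM2A, mare 1 was above on 4 of 5 days (0.31 on average) and mare 4 on 1 of 5 (−0.26 on average). Mare 4 was below the day means on average in all 3 genes, with −0.22 for CLU, where its deviation at day 0 was −1.19.

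GM2A and GPX3 are near neighbours in the horse genome. In the RefSeq annotation of the assembly TB-T2T they lie on the same chromosome with 7 annotated genes between them, of which 3 encode proteins (CCDC69, ANXA6 and TNIP1), and none of the 7 had a named probe. CLU lies on another chromosome. The arrays were designed before that assembly, so positions are not given.

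Of 537 other named and tested genes, those most like GM2A over the 25 arrays were RBP4, the plasma carrier of retinol (r of 0.835), CHGA, the chromogranin of secretory granules (0.819), UBE2B, a ubiquitin-conjugating enzyme (0.749), MAOB, a monoamine oxidase (0.747), and NR5A2, an orphan nuclear receptor (0.711). RBP4 had log2 levels of 1.69 ± 0.42, 0.44 ± 0.64, 0.91 ± 0.65, 3.83 ± 0.94 and 4.10 ± 1.03 at days 0, 3, 8, 12 and 16, and thus the same lowest and highest day as GM2A. CHGA had its lowest mean at day 3 and its highest, 2.28 ± 1.72, at day 16 too, but was well above background on only 1 of 5 arrays at day 3.

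Those most like GPX3 were P19, the lipocalin uterocalin of the equine uterus (r of 0.837), CYP2E1, a cytochrome P450 (0.808), UBE2B (0.764), PTGES, a prostaglandin E synthase (0.759), and LOC100061179 (0.755). P19 had its highest mean at day 8, at 7.74 ± 0.17, and PTGES at day 12, at 2.36 ± 0.13. Those most like CLU were MMP9, a gelatinase (0.799), GNLY (0.766), TNNI3, a troponin subunit (0.758), PYGL, a glycogen phosphorylase (0.747), and INTS3, a subunit of the integrator complex (0.746). All 5 had their lowest mean at day 8, as CLU did. These correlations over 25 arrays of 5 mares describe likeness of course.

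**Figure D5:**
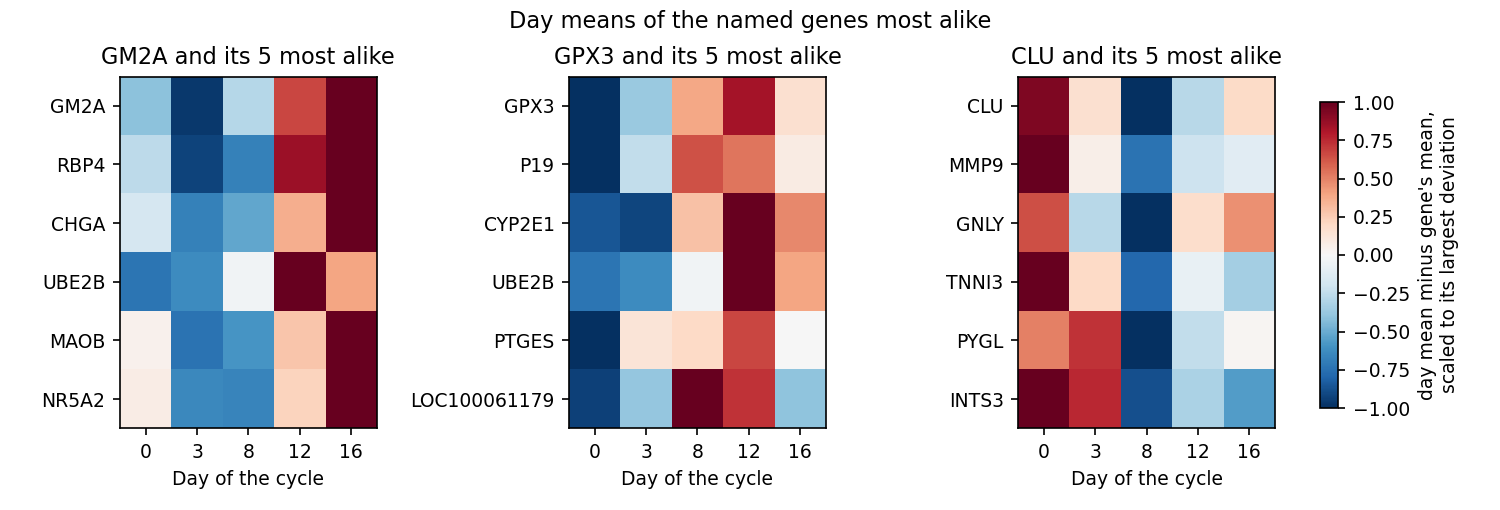
Day means of GM2A, GPX3 and CLU (top rows) and of the 5 named genes most alike to each, as log2 level minus the gene's mean, divided by its largest deviation (colour scale from −1 to 1), against the day of the cycle. RBP4, CHGA, MAOB and NR5A2 share the maximum of GM2A at day 16, and the 5 genes below CLU share its minimum at day 8.

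Other secreted proteins of the uterus were measured beside them. Of 30 listed genes 10 had a named probe and 9 were tested, and 9 of 9 passed the F test, which called 35.8% of all tested probes. The list was chosen with earlier results of these data known, so these shares do not test secreted proteins as a set. Between successive days, 3 were called higher and 1 lower at day 3 against day 0 (12.7% of all probes called), 3 higher and 1 lower at day 8 against day 3 (13.8%), 1 higher at day 12 against day 8 (1.1%), and 3 higher and 2 lower at day 16 against day 12 (8.07%). The median differences of the 9 were −0.40, 0.24, −0.30 and −0.53, where all tested probes had −0.11, 0.08, 0.06 and −0.07.

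The 4 with the smallest adjusted p in the F test followed several courses. FST, the activin-binding follistatin, rose at day 8 against day 3 by 1.08 ± 0.20 (adjusted p = 0.000661) and fell by 2.69 ± 0.20 at day 16 against day 12 (adjusted p = 1.15e-08), when GM2A differed by 0.42. LGB1, a beta-lactoglobulin, was well above background on no array at day 0 and on 1 of 5 at day 16, and rose by 1.92 ± 0.53 at day 8 against day 3 (adjusted p = 0.0155). RBP4, the retinol carrier above, rose by 2.92 ± 0.46 at day 12 against day 8 (adjusted p = 0.00508), the step at which GM2A was called too. P19 rose by 1.89 ± 0.50 at day 3 against day 0 (adjusted p = 0.0161) and by 2.20 ± 0.50 at day 8 against day 3 (adjusted p = 0.00412).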

How the data were processed

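RNA of 25 biopsies was labelled with Cy3 and hybridised to single-colour arrays. The deposited values are intensities, background-subtracted and detrended by Agilent Feature Extraction 10.7.3.1, per the file headers and the submitters' processing notes. The deposited value table equalled the scanner output in 25 of 25 arrays, within a relative tolerance of 1e-06. Log2 levels minus each array's 75th percentile were computed from the deposited intensities. Spots marked as outliers were left out, and spots of a probe averaged. A probe was tested where, on some day, at least 4 of 5 arrays had it well above background (35770 of 43603). Gene names came from RefSeq accessions (TB-T2T): 1307 probes of 620 genes had a symbol. A gene without a named probe may still be measured by some of the 42296 probes without a symbol.

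Days were compared with limma 3.58.1 in R 4.3.3, in 1 model of 25 arrays with day as the only term, two-sided and adjusted by Benjamini-Hochberg within each comparison over all tested probes; an adjusted p under 0.05 was a call. SEs share 1 spread over the days. Overlap between days and counts of mares were looked at for the members only, so no share over all probes stands beside them. On data simulated for day 8 against day 3 (35770 probes), 39 of 100 probes changed by 1 on the log2 scale and 80 of 100 changed by 2 were called. Only these probes were changed there, with noise independent between arrays, whereas the measured comparison called 13.8% of all tested probes. The simulated shares therefore do not give the sensitivity in the measured data. Exact tests used scipy 1.17.1 in Python 3.11.15. The members, gene lists and alternatives were chosen with earlier results of these data known. A gene was represented by its brightest probe, the 5 most correlated genes were named per member, and of each list up to 4 called members.

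Arrays of the same number come from the same mare, per the labels. Deviations from the day means correlated at a median of 0.245 within and −0.047 between mares (0.120 within mares across slides), and 35 of 50 pairs within mares exceeded 0.1. Arrays lay on 7 slides and were scanned on 4 days. Most slides held arrays of a single mare, and the day 0 arrays of mares 1, 2 and 3 lay on slides apart from their other arrays. The alternatives were quantile normalization, normexp (offset 50, on median signals, with marked local backgrounds replaced), filters on dim probes, mare, slide, both or scan day as blocks (the last chosen after seeing the data), only the 2 days compared, an intensity trend, the signal level as a covariate, and leaving out arrays or mares. The number of arrays limits the precision.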

Additional observations from a re-analysis of the deposited data

Results flagged for a closer look

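In groups of 5 arrays, a highest or lowest array was marked where its gap to the next one was a large share of the group's range. Of 40 groups, 8 probes on 5 days, 8 had such an array, where chance marks about 1 in 20, and the 6 probes of GPX3 are not independent of each other. GM2A in mare 1 at day 8 had a log2 level of −0.0941, above the other 4 mares. CLU in mare 4 at day 0 had a log2 level of 5.13, below the other 4 mares. GPX3 in mare 4 at day 3 was below the other 4 mares with all 6 probes, at −2.15 for the brightest and −4.65, −4.71, −4.78, −4.76 and −5.12 for the dimmer ones.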

How the results depend on the processing

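Apart from leaving out arrays or mares, 13 alternatives were run. GM2A at day 3 against day 0 passed with normexp (−0.72, adjusted p = 0.0497). Its call at day 8 against day 3 was lost with quantile normalization (0.81), no filter (0.85), scan day (0.84) and without the day 0 array of mare 2 and the day 3 array of mare 4, which earlier results had singled out (0.83). Its call at day 12 against day 8 was lost with no filter or only those days (1.19), mare and slide (1.13), the array's 75th percentile as a covariate (1.12), scan day (1.12) and without those 2 arrays (1.19). At day 16 against day 0 the covariate ended the calls of GM2A (1.49) and GPX3 (1.37), and only those days that of GPX3 (1.66). GPX3 passed at day 3 against day 0 without those 2 arrays (1.43), at day 8 against day 3 with mare as a block (1.08, adjusted p = 0.0497) or only those days (1.08), and at day 12 against day 8 with only those days (0.64). CLU at day 8 against day 3 passed with quantile normalization (−0.78), mare as the replicate block (−0.74), slide (−0.80), both (−0.82), only those days (−0.74) and an intensity trend (−0.74). For GM2A, CLU and the brightest GPX3 probe, the replicate block of mare alone changed no other call among the F tests, the successive days and day 16 against day 0. With mare and slide, CLU turned to 0.12 at day 3 against day 0, 0.0863 at day 16 against day 0 (0.0192 with quantile normalization) and −0.0375 at day 16 against day 3, and its F of 3.94 no longer passed (adjusted p = 0.0855). Its call at day 8 against day 0 was lost only with mare and slide together (−0.69), that at day 12 against day 0 in 8 of the 13 and that at day 16 against day 8 in 4. With the covariate GM2A turned to −0.000945 at day 8 against day 0. With mare and slide together, the level of day 0 rests only on the day 0 arrays of mares 4 and 5. Differences against day 0 in that model are therefore not adjusted results over all mares. The causes were not tested.

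Leaving out single arrays or mares gave, at day 8 against day 3, 0.62 to 0.95 for GM2A and −0.86 to −0.63 for CLU. For GM2A it gave 1.03 to 1.42 at day 12 against day 8 and −0.0675 to 0.34 at day 8 against day 0. For CLU it gave −0.85 to −0.36 at day 3 against day 0, −0.80 to −0.30 at day 16 against day 0, −0.10 to 0.12 at day 16 against day 3, and F of 3.9998 to 15.9, which missed the threshold without mare 2 or mare 3. For GPX3 it gave 1.18 to 2.14 at day 16 against day 0 and −0.54 to 0.0304 at day 16 against day 8. The F test called 12799 probes, 7813 with mare and slide and 7509 to 13980 without single arrays or mares. Over the 13 alternatives, pairwise counts ranged from 732 to 8646 (4533 as reported) at day 3 against day 0, 3485 to 6037 (4927) at day 8 against day 3, 4 to 2409 (392) at day 12 against day 8, 1519 to 3996 (2888) at day 16 against day 12 and 9 to 8070 (1683) at day 16 against day 0. They ranged from 2425 to 9311 (7837) at day 8 against day 0, 2739 to 7807 (6399) at day 12 against day 0, 5592 to 8335 (6415) at day 12 against day 3, 1725 to 6138 (4952) at day 16 against day 3 and 3197 to 6598 (5379) at day 16 against day 8.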
